A study of Mus musculus with 20 samples.

Results

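Chemokine ligands and receptors were followed through growing mouse plantaris tendon, a tendon at the back of the lower leg. The members were all genes of the deposited table whose symbol begins with Ccl, Cxcl, Cx3cl, Xcl, Ccr, Cxcr, Cx3cr, Xcr or Ackr and a number, which gave 58 of 24885 genes, 35 ligands and 23 receptors. The 20 libraries formed 5 groups of 4: KO and WT at day 7, KO and WT at day 14, and WT at day 0. Every mouse carried floxed Igf1r on both alleles, the gene of the IGF1 receptor. KO mice had CreERT2, a recombinase switched on by tamoxifen and driven by the tenocyte gene Scx, on both alleles, and WT mice had none. In KO against WT, CreERT2 at Scx and the intended deletion of Igf1r therefore cannot be told apart. Tamoxifen and a growth stimulus were given to both genotypes sampled at day 7 or 14, while WT day 0 mice received neither. No KO group without the stimulus was analysed here, and stimulus and tamoxifen cannot be told apart in any comparison with day 0. The labels give no age. Since they do not call replicates separate mice, p-values stand for the spread between libraries, which may be technical. The study compared tendon growth with and without a deletion of Igf1r aimed at tenocytes.

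Chemokines are small secreted proteins that draw leukocytes along a gradient by binding receptors that signal through G proteins. CXC ligands with a particular motif before their first cysteines act on Cxcr2 and draw neutrophils, many CC ligands draw monocytes through Ccr2 or Ccr1, and homeostatic ligands such as Cxcl12 and Ccl21a place cells in resting tissue. Atypical receptors (Ackr genes) bind chemokines without G protein signalling and remove or carry them. In tendon, fibroblasts, endothelium and resident macrophages can all make chemokines.

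Igf1r itself was not lower in the libraries labelled KO, with 49.0 to 55.0 CPM in KO and 46.1 to 50.8 CPM in WT at day 7, and 49.8 to 60.4 CPM in KO and 40.6 to 48.7 CPM in WT at day 14. The log2 fold changes were 0.06 ± 0.08 and 0.23 ± 0.08 (SE, n = 4 per group; edgeR adjusted p = 0.646 and 0.162). Counts over the whole gene do not show whether the floxed part is missing, so the deletion was not checked here, and KO and WT are the names the labels give. Scx, the gene that carries CreERT2, was higher in the libraries labelled KO by 3.87 at day 7 and 3.45 at day 14.

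Library depth ranged from 32254411 to 63522834 counts, and 31 ligands and 21 receptors passed the filter on low counts, so 52 of the 58 members were tested among 18918 genes. Ccl1, Ccl19-ps1, Cxcl17, Xcl1, Ccr6 and Ccr8 did not pass. Levels are given as CPM, counts scaled to library size with TMM factors, in the order of replicate numbers within a group. WT day 7 replicate 1 stood apart from its group in several members, and KO day 7 replicate 2 alone held much keratinocyte RNA, 681 CPM summed over 5 keratins against no more than 12.7 CPM in any other day 7 library. In RNA from whole tissue, fewer cells of a type and less RNA per cell cannot be told apart. At WT day 7 against WT day 0, 32.3% of all genes tested rose and 31.8% fell. All 7 general leukocyte markers rose there, with a summed level of 659 to 1008 CPM at day 7 and 347 to 402 CPM at day 0. Of 11 T and NK cell markers 3 rose and 1 fell, and they summed to 27.6 to 37.0 CPM at day 7 and 5.46 to 8.75 CPM at day 0. Most of that sum at day 7 was Cd4, with a mean of 25.8 CPM at WT day 7 and 2.43 CPM at WT day 0. Cd3e averaged 0.194 CPM at WT day 7 and 0.707 CPM at WT day 0, so the sum does not stand for T cells as a whole. Of 11 tendon markers 4 rose and 4 fell, and they summed to 50880 to 62770 CPM at day 7 and 52410 to 65250 CPM at day 0.

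In WT tendon at day 7 against day 0, 18 of the 31 ligands tested rose and 6 fell, and 10 of the 21 receptors rose and 4 fell (edgeR quasi-likelihood test, Benjamini-Hochberg adjusted p below 0.05 over all genes). Of all genes tested, 32.3% rose and 31.8% fell, 64.1% in all. The median log2 fold change was 1.96 over the ligands, 0.96 over the receptors and 0.02 over all genes. Of the 38 members called, 37 had no overlap between the 4 day 7 and the 4 day 0 libraries, and Cx3cl1 overlapped. The share of all genes without overlap was not counted, so these numbers do not set the members apart from other genes. All 38 calls stood without any single library and in every other setting in which the gene was tested.

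The plot of ligand levels shows each library.

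**Figure D1:**
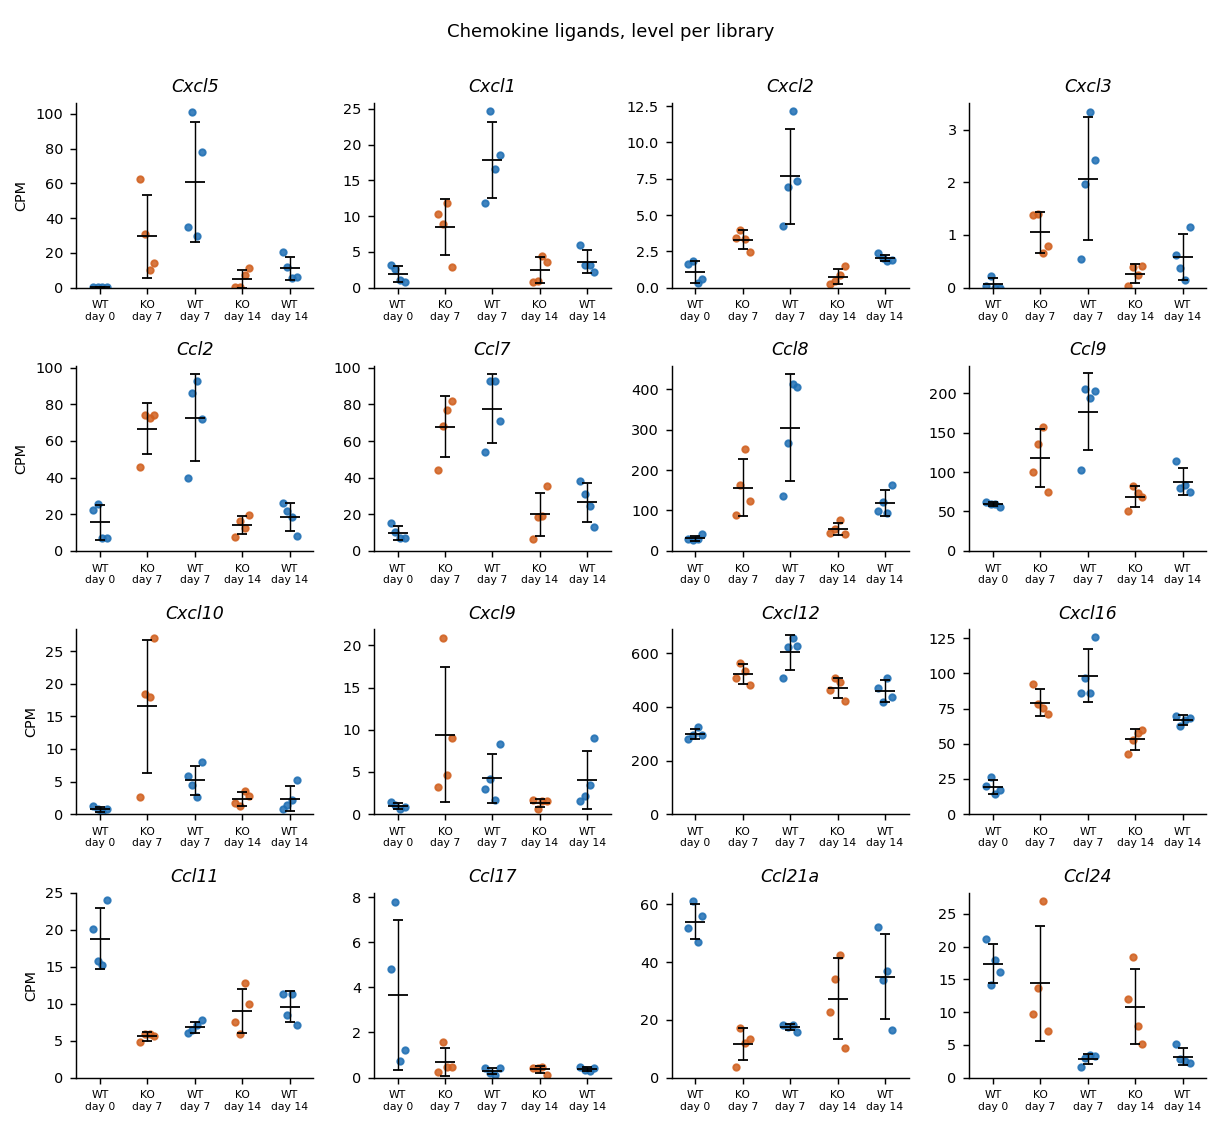
CPM (linear axis, from 0) of 16 ligands in the 4 libraries of each group, WT in blue and KO in orange, with bars for the mean ± SD. Cxcl5 lies between 29.8 and 101 CPM at WT day 7 and between 0.0917 and 0.325 CPM at WT day 0, and Ccl24 is higher in every KO day 7 library than in any WT day 7 library.

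The neutrophil-attracting ligands Cxcl5, Cxcl3, Cxcl1 and Cxcl2 lie together on chromosome 5 (90759360 to 90905938, GRCm38), and all 4 rose at day 7. The promoter of Cxcl5 was not analysed here. Those of Cxcl1, Cxcl2 and Cxcl3 are shown because these neighbours rose together and each holds GGGA and TTCC with any 2 bases between them, a form of the site of NF-kappa B, the factor through which inflammatory cytokines switch on many chemokine genes. Cxcl10, a ligand that interferon induces, is shown beside them with its own match and with GAAA repeated after any 2 bases, a form of the interferon response element. The sequences are the 250 bases before the RefSeq start on GRCm38.p6, 5′ to 3′ on the gene's strand, at chr5:90890995-90891244, chr5:90903649-90903898 and chr5:90785851-90786100 on the plus strand and chr5:92348890-92349139 on the minus strand. Capitals mark the matched letters, and in the first 3 the matches of both strands overlap by all but 1 base at each end.
Cxcl1: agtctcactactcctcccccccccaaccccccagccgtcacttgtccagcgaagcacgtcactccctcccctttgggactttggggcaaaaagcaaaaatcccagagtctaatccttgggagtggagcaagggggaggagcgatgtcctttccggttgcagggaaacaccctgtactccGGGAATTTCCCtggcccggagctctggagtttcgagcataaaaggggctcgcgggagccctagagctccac
Cxcl2: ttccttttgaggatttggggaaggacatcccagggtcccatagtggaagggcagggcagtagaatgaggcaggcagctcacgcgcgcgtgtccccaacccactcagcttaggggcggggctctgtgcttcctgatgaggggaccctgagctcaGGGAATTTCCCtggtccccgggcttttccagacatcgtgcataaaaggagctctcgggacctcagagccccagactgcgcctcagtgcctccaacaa
Cxcl3: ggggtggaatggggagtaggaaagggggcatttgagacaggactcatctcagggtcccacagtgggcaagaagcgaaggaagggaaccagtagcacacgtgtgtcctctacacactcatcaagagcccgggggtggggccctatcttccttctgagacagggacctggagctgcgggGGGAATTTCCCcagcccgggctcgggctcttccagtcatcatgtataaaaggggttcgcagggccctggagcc
Cxcl10: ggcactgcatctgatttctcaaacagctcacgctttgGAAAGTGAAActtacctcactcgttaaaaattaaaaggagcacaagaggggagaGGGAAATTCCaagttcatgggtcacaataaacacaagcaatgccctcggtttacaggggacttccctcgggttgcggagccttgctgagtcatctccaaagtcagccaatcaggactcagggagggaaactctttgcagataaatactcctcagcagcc
Searched on both strands, the NF-kappa B letters lay in this window of 5 of the 24 ligands with a RefSeq promoter (Ccl1, Cxcl1, Cxcl2, Cxcl3 and Cxcl10), 1 of the 19 receptors (Ccr3) and 1.36% of 27025 genes. The interferon letters lay in 3 ligands (Ccl19, Cxcl10 and Cxcl14), 0 receptors and 3.46% of genes. TTC and GAA with any 3 bases between them, a form of the STAT site that reads the same on both strands, lay in 2 ligands (Ccl17 and Cxcl14), 2 receptors (Ccr1l1 and Ccr6) and 8.13% of genes. In Cxcl1 the NF-kappa B letters began 71 bases before the start, in Cxcl3 73, in Cxcl2 97 and in Cxcl10 159. A match describes the sequence and does not show a bound factor.

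Cxcl5, made by stromal and epithelial cells, had 0.0917, 0.325, 0.312 and 0.12 CPM at WT day 0, 34.6, 101, 29.8 and 77.9 CPM at day 7, and 20.4, 11.7, 5.44 and 6.35 CPM at day 14. Every day 7 library lay far above every day 0 library, and every day 14 library lay between them. The log2 fold change at day 7 against day 0 was 8.04 ± 1.15 (SE, n = 4 per group; edgeR adjusted p = 1.35e-05). Cxcl1, the mouse counterpart of the growth-regulated chemokines, had 3.09, 2.60, 1.06 and 0.746 CPM at day 0, 11.8, 24.6, 16.5 and 18.5 at day 7, and 5.99, 3.14, 3.19 and 2.17 at day 14. It rose by 3.26 ± 0.60 at day 7 (edgeR adjusted p = 0.000142), and day 14 overlapped day 0. Cxcl2 had 1.59, 1.85, 0.333 and 0.578 CPM at day 0, 4.24, 6.91, 12.1 and 7.34 at day 7, and 2.37, 2.03, 1.85 and 1.91 at day 14. It rose by 2.81 ± 0.48 at day 7 (edgeR adjusted p = 5.19e-05). Cxcl3 was low throughout, with 0.548, 1.97, 3.34 and 2.43 CPM at day 7 against no more than 0.228 CPM in any day 0 library, and rose by 4.71 ± 0.85 (edgeR adjusted p = 9.22e-05).

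All 4 of these ligands fell again at WT day 14 against WT day 7, Cxcl5 by 2.47 ± 0.81, Cxcl1 by 2.30 ± 0.57, Cxcl2 by 1.91 ± 0.46 and Cxcl3 by 1.85 ± 0.68 on the log2 scale. For Cxcl1 and Cxcl2 this held without any single library. The call of Cxcl3 was lost without WT day 7 replicate 2, 3 or 4 or WT day 14 replicate 1, 2 or 3 (edgeR adjusted p = 0.0793 to 0.143, against 0.0465 with all libraries). That of Cxcl5 was lost without WT day 7 replicate 2 or 4 or WT day 14 replicate 2, 3 or 4 (edgeR adjusted p = 0.057 to 0.0854, against 0.0289 with all libraries). The neutrophil markers fell alongside, with Csf3r at -2.03 and S100a9 at -1.65, 4 of the 6 tested, against 14.3% of all genes. At day 7 against day 0 these markers rose in 5 of 6 cases, Csf3r by 4.0, against 32.3% of all genes. The part of cell numbers in the ligand changes was not tested.

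Several ligands of monocytes and macrophages also rose at day 7. On chromosome 11, Ccl2, Ccl7, Ccl12 and Ccl8 rose and Ccl11 fell within the stretch 82035571 to 82305690 (GRCm38), and further along (83525778 to 83664683) Ccl9, Ccl6, Ccl3 and Ccl4 rose while Ccl5 did not pass. Ccl8, a ligand of Ccr2 and other receptors in mouse, had 29.2, 28.0, 28.3 and 40.8 CPM at WT day 0, 135, 267, 413 and 404 CPM at day 7, and 98.6, 120, 93.1 and 164 CPM at day 14. Day 7 and day 14 both lay wholly above day 0, and day 7 replicate 1 was the sole day 7 library below the highest day 14 one. Ccl8 rose by 3.27 ± 0.37 at day 7 against day 0 (SE, n = 4 per group; edgeR adjusted p = 8.79e-07) and was still higher at day 14 against day 0, by 1.92 ± 0.36 (edgeR adjusted p = 0.000239).

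Ccl2, the main ligand of Ccr2 and a recruiter of monocytes, had 22.2, 25.6, 7.12 and 7.10 CPM at WT day 0, 39.6, 86.3, 92.6 and 71.9 at day 7 and 25.9, 21.6, 18.5 and 8.36 at day 14. The day 0 libraries split into a higher and a lower pair, replicates 1 and 2 above 3 and 4, and the same order held for Cxcl1, Cxcl2, Ccl5 and Ccl17. All day 7 libraries of Ccl2 lay above both other groups. It rose by 2.23 ± 0.46 at day 7 (edgeR adjusted p = 0.000454) and fell by 1.96 ± 0.45 at day 14 against day 7 (edgeR adjusted p = 0.0039). Ccl7, its neighbour with overlapping receptors, rose by 2.97 ± 0.45 at day 7, with 54.1, 92.8, 92.8 and 70.8 CPM at day 7 against 15.2, 10.5, 6.91 and 7.12 CPM at day 0. Ccl12, close to Ccl2 in sequence and found in mouse, rose by 2.18 ± 0.38.

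Ccl9, a ligand of Ccr1, had 61.9, 59.4, 59.4 and 55.6 CPM at WT day 0, 103, 205, 194 and 203 CPM at day 7 and 114, 79.5, 83.9 and 74.7 CPM at day 14. It rose by 1.58 ± 0.23 at day 7 against day 0 (edgeR adjusted p = 1.11e-05), with day 7 replicate 1 well below the other 3. Ccl6, a related ligand of Ccr1, rose by 1.96 ± 0.40. Ccl3 and Ccl4, the macrophage inflammatory proteins, rose by 2.41 ± 0.51 and 2.02 ± 0.43 from means of no more than 0.506 CPM at day 0. Ccl20, the ligand of Ccr6, was scarce, with 96 reads over the WT day 7 libraries and 3 over the WT day 0 libraries. The ratio after scaling was 24.8-fold (exact 95% interval for counting error, 8.22 to 122). Over the KO day 14 and WT day 14 libraries Ccl20 had 2 and 13 reads, so it passed the low-count filter through the day 7 libraries alone. Its place among the ligands that rose is therefore partly set by that filter. Xcl1, a lymphocyte chemokine that was not tested, had 24 counts at WT day 7, 14 of them in replicate 1, and 0 at WT day 0. With a floor of 3 counts over the group in place of 0, the ratio was 6.19-fold. Such intervals cover counting error only, and a floor leaves out the counting error of the higher group.

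Of the interferon-induced ligands of Cxcr3, Cxcl10 and Cxcl9 rose at day 7 against day 0, by 2.81 ± 0.69 and 2.12 ± 0.67, while Cxcl11 at -1.24 ± 0.57 did not pass (edgeR adjusted p = 0.0018, 0.0107 and 0.062). Cxcl10 had 5.80, 4.44, 2.67 and 7.93 CPM at day 7 against 1.22, 0.748, 0.312 and 0.746 CPM at day 0. Both stayed low, and their day 7 libraries lay above all day 0 ones. Of 17 interferon response genes 10 rose, among them Oas1a at 3.0 on the log2 scale, against 32.3% of all genes tested. Cxcl10 shares 133 of its 2252 exon bases with Art3 on the opposite strand, which fell by 2.42 in the same comparison. Cxcl11 is annotated as a polymorphic pseudogene and shares 1582 of its 3794 exon bases with Gm2673 on the opposite strand. Its mean was 0.140 CPM at WT day 7 and 0.338 CPM at WT day 0, so its value says little about a working ligand. The strand setting of the counting is not given in the sources used here.

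Cxcl12, the stromal ligand of Cxcr4, had 282, 297, 324 and 295 CPM at WT day 0, 508, 622, 657 and 627 CPM at day 7 and 472, 420, 509 and 436 CPM at day 14. Days 7 and 14 both lay wholly above day 0, and they met each other at day 7 replicate 1 and day 14 replicate 3. It rose by 1.01 ± 0.09 at day 7 (edgeR adjusted p = 2.03e-08) and by 0.62 ± 0.09 at day 14 against day 0 (edgeR adjusted p = 1.72e-05). Cxcl16, a membrane-bound ligand of Cxcr6, had 19.96, 26.3, 14.5 and 17.1 CPM at day 0, 85.7, 96.5, 85.8 and 126 at day 7 and 69.9, 62.4, 66.9 and 68.5 at day 14. It had the smallest p of the ligands at day 7 against day 0, with a rise of 2.34 ± 0.16 (edgeR adjusted p = 6.73e-10). Cxcl16 shares 552 of 3021 exon bases with Zmynd15 on the opposite strand, which rose by 1.97 ± 0.16, so reads of this pair are uncertain. Cxcl14, a ligand of fibroblasts and epithelia, ranged from 83.0 to 482 CPM at day 7 and from 46.3 to 55.2 CPM at day 0 and rose by 2.49 ± 0.43.

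6 ligands fell at day 7 against day 0. Ccl17, which acts on Ccr4, fell by 3.61 ± 0.70, with 0.419, 0.22, 0.124 and 0.418 CPM at day 7 against 4.83, 7.81, 0.75 and 1.20 CPM at day 0, where replicates 1 and 2 were again the higher ones. Ccl24 and Ccl11, the eotaxins, which act on Ccr3, fell by 2.62 ± 0.44 and 1.46 ± 0.21. Ccl11 had 6.09, 6.39, 7.11 and 7.74 CPM at day 7 against 20.1, 15.7, 15.3 and 24.1 CPM at day 0. Ccl21a, a ligand of Ccr7 on lymphatic vessels, fell by 1.63 ± 0.43, with 15.8 to 18.2 CPM at day 7 against 47.1 to 61.2 CPM at day 0, and Prox1, a lymphatic marker, by 0.81 (edgeR adjusted p = 0.00074). Ccl27a, a ligand of Ccr10 known from skin, fell by 1.57 ± 0.36. Of 5 keratinocyte markers 3 also fell, against 31.8% of all genes tested. Krt15 stood at -9.32, with a mean near the floor at WT day 7, 0.00784 CPM, against 7.03 CPM at WT day 0. Over the WT day 0 libraries the keratin sum ran from 10.6 to 120 CPM and Ccl27a from 1.95 to 2.54 CPM. The part of keratinocytes in the fall of Ccl27a was not tested. The mouse genome holds near-identical copies of Ccl21a, Ccl19 and Ccl27a, so their counts are uncertain. Cx3cl1, a membrane-bound ligand of endothelium, fell by 0.57 ± 0.18 (edgeR adjusted p = 0.0088).

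Levels of different genes can be compared roughly per kilobase of exon. The length used was that of the merged exons of all annotated transcripts, 8176 bases for Cxcl12 and 511 for Ccl8. A gene whose expressed transcript is shorter than that comes out too low. On that scale Ccl8 led the ligands at WT day 7 with 596 ± 258 CPM per kb (SD, n = 4), and its lowest library, at 263, lay at the level of the highest one of Cxcl14, 264, which followed with 156 ± 96.0. Ccl6 (115 ± 47.8), Ccl7 (96.9 ± 23.5), Cxcl12 (73.8 ± 8.03) and Ccl2 (63.8 ± 20.8) came next in level, and each of these neighbours overlapped the one before it. At WT day 0 the order began with Ccl21a at 62.1 ± 6.91, Ccl8 at 61.8 ± 12.0 and Cxcl12 at 36.6 ± 2.20 CPM per kb. Ccl21a and Ccl8 overlapped there, and Cxcl12 lay below both. Among receptors Ackr3 led on both days, with 45.0 ± 16.2 at day 7, where it overlapped Cxcr4, and 57.0 ± 7.76 at day 0. It was followed by Cxcr4, Ccr2 and Ccr1 at day 7 (30.2 ± 4.34, 25.5 ± 7.84 and 23.3 ± 6.51), which overlapped, and by Ackr1 and Ackr2 at day 0 (26.9 ± 4.35 and 12.0 ± 2.62), which did not.

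The plot of receptor levels shows 5 signalling and 3 atypical receptors by library.

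**Figure D2:**
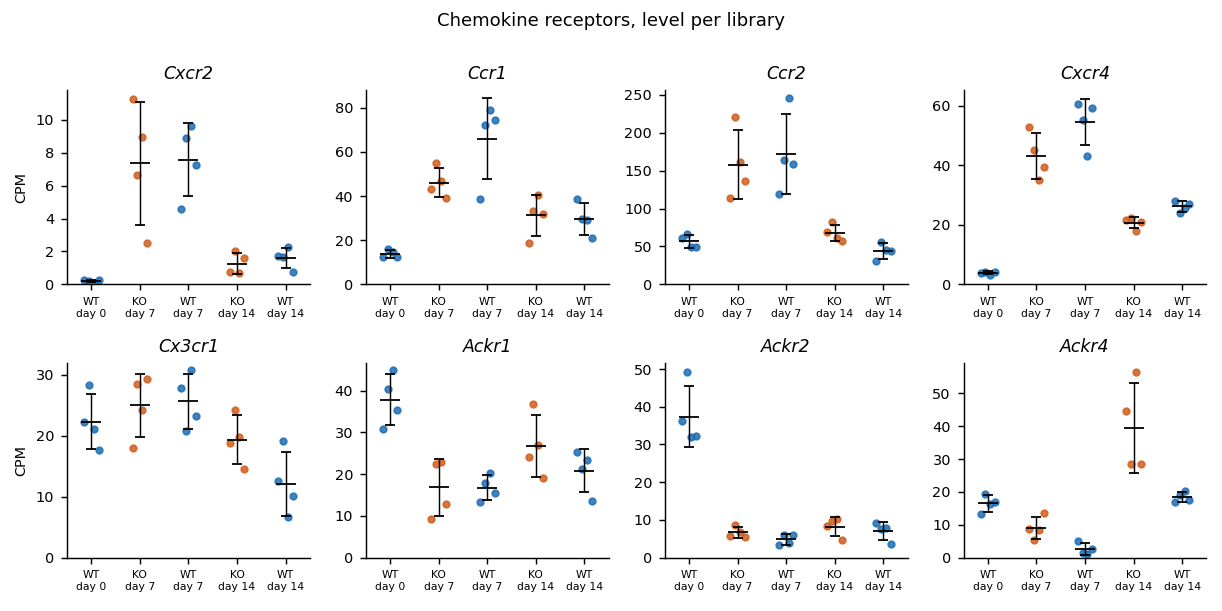
CPM (linear axis, from 0) of 8 receptors in the 4 libraries of each group, WT in blue and KO in orange, with bars for the mean ± SD. Cxcr4 lies between 43.3 and 60.4 CPM at WT day 7 and between 3.12 and 4.31 CPM at WT day 0, and Ackr4 is lowest at WT day 7 and highest at KO day 14.

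Cxcr4, the receptor of Cxcl12, had 3.98, 4.31, 3.12 and 4.31 CPM at WT day 0, 60.4, 55.3, 43.3 and 59.3 CPM at day 7 and 28.1, 23.9, 25.7 and 27.1 CPM at day 14. None of the 3 groups overlapped another. It rose by 3.79 ± 0.15 at day 7 against day 0 (SE, n = 4 per group; edgeR adjusted p = 2.9e-13), the smallest p of all members, and fell by 1.06 ± 0.13 at day 14 against day 7 (edgeR adjusted p = 1.25e-05). Cxcr2, which neutrophils use to follow Cxcl1, Cxcl2 and Cxcl5, had 0.245, 0.228, 0.104 and 0.241 CPM at day 0, 4.59, 8.88, 9.60 and 7.26 at day 7 and 1.74, 1.69, 2.25 and 0.73 at day 14. Again the 3 groups stood wholly apart. Cxcr2 rose by 5.21 ± 0.53 at day 7 and fell by 2.24 ± 0.43 at day 14 against day 7 (edgeR adjusted p = 1.2e-07 and 0.000797). Cxcr1, its neighbour and relative, had 69 reads over the WT day 7 libraries and 1 over the WT day 0 libraries. The ratio was 53.4-fold (exact 95% interval for counting error, 9.27 to 2140). Cxcr1 passed the low-count filter through day 7 and day 14 libraries alone. Its place among the receptors that rose is therefore partly set by that filter. With the stricter filter and in the compared groups alone Cxcr1 was not tested.

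Of the receptor genes near each other on chromosome 9 (GRCm38), Ccr1, Ccr3 and Ccr2 rose at day 7, while Ccr9, Cxcr6, Xcr1 and Ccr1l1 did not pass. Ccr1, a receptor of macrophages and neutrophils, had 12.2, 16.0, 14.8 and 12.4 CPM at WT day 0, 38.8, 72.5, 78.9 and 74.3 CPM at day 7, with replicate 1 lower than the others, and 38.9, 29.6, 29.2 and 21.2 CPM at day 14. Ccr2, the receptor of inflammatory monocytes, had 61.7, 66.6, 49.4 and 49.0 CPM at day 0, 119, 165, 246 and 159 at day 7 and 30.6, 56.4, 46.0 and 44.2 at day 14. For both Ccr1 and Ccr2 the day 7 libraries lay above all day 0 libraries. The rises were 2.25 ± 0.24 for Ccr1 and 1.60 ± 0.23 for Ccr2 (edgeR adjusted p = 2.69e-07 and 9.01e-06). At day 14 against day 0 Ccr1 was still higher, by 1.10 ± 0.24 (edgeR adjusted p = 0.000761), while Ccr2 stood at -0.36 ± 0.23 (edgeR adjusted p = 0.198).

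Ccr3, the eotaxin receptor, rose by 2.27 ± 0.57 at day 7, and its mean was 1.47 CPM. The eosinophil marker Siglecf averaged 0.62 CPM there. Ccr7, which guides dendritic cells and lymphocytes to lymph nodes, rose by 2.85 ± 0.38. The Cxcl9 and Cxcl10 receptor Cxcr3 rose by 1.41 ± 0.30. Cxcr5, a chemokine receptor of B cells, rose by 1.47 ± 0.48 at a mean of 0.38 CPM. Per kilobase of exon Cxcr5 averaged 0.114 CPM at WT day 7 and 0.0793 CPM at KO day 7. It averaged 0.0388 CPM at WT day 0, 0.0312 CPM at KO day 14 and 0.0326 CPM at WT day 14. Cxcr5 therefore passed the low-count filter mainly through the day 7 libraries. Its place among the receptors that rose is partly set by that filter. Of 11 macrophage markers 8 rose, against 32.3% of all genes tested, and Lyve1 fell to 71.0 CPM at day 7 from 168 CPM at day 0. Cx3cr1, a receptor of resident macrophages and patrolling monocytes, stood at 0.20 ± 0.25 at day 7 against day 0 (edgeR adjusted p = 0.502). It had 12.6, 19.1, 6.70 and 10.1 CPM at day 14 against 27.9, 20.8, 30.7 and 23.2 CPM at day 7, without overlap, and fell by 1.08 ± 0.25 (edgeR adjusted p = 0.00365).

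Of the 4 atypical receptors 3 fell at WT day 7 against WT day 0, where 31.8% of all genes tested fell. Ackr2, which takes up and degrades inflammatory CC ligands, had 36.2, 49.3, 31.9 and 32.2 CPM at WT day 0, 3.29, 6.10, 3.85 and 6.05 CPM at day 7 and 9.05, 7.49, 7.91 and 3.58 CPM at day 14. All later libraries lay far below day 0. It fell by 2.96 ± 0.30 at day 7 and by 2.42 ± 0.29 at day 14 against day 0 (edgeR adjusted p = 1.16e-07 and 1.93e-06). Ackr4, which removes Ccl19 and Ccl21, had 13.3, 19.5, 16.2 and 16.97 CPM at day 0, 5.08, 1.34, 1.04 and 2.57 at day 7 and 17.01, 19.0, 20.4 and 17.5 at day 14. Day 7 lay wholly below both other groups, which overlapped each other. The log2 fold changes were -2.71 ± 0.40 at day 7 against day 0 and 2.87 ± 0.40 at day 14 against day 7 (edgeR adjusted p = 1.47e-05 and 7.4e-05). Ackr1, which carries chemokines across the endothelium of venules, fell by 1.18 ± 0.27 at day 7, with 13.4, 17.9, 20.2 and 15.5 CPM against 30.8, 40.4, 44.8 and 35.4 CPM at day 0. It shares 361 of 1405 exon bases with Cadm3 on the same strand, which fell by 2.33 ± 0.26. Ackr3, a scavenger of Cxcl12, stood at -0.34 ± 0.28 (edgeR adjusted p = 0.292), and Ccr10, a signalling receptor, fell by 1.40 ± 0.38. Of the 8 endothelial markers 4 fell and 0 rose, with Kdr at -0.88, and all 5 adipocyte and all 8 muscle fibre markers fell; their part in these falls was not tested.

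At WT day 14 against WT day 7, 13 ligands and 9 receptors fell, and Ackr4 alone rose. Among all genes 14.3% fell and 16% rose, 30.4% in all, and the median log2 fold change was -0.56 over ligands, -0.76 over receptors and 0.02 over all genes. Of the 23 calls, 18 stood without any single library. The other 5 were Cxcl3 and Cxcl5, given above, Ccl12, Ccl20 and Cxcl16. Ccl12 lost its call without WT day 7 replicate 3 or 4 or WT day 14 replicate 3 (edgeR adjusted p = 0.0579 to 0.0628). Ccl20 lost it without WT day 7 replicate 2 or WT day 14 replicate 1 or 3 (adjusted p = 0.0671 to 0.106) and Cxcl16 without WT day 7 replicate 4 (adjusted p = 0.0569). All 7 leukocyte markers fell too, to a summed 403 to 571 CPM at day 14, against 659 to 1008 CPM at day 7.

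At WT day 14 against WT day 0, 13 ligands were higher and 4 lower, as were 6 and 3 receptors. Of all genes 28% were higher and 26.2% lower, 54.3% in all, near the share of the members. Of the 26 calls 19 stood without any single library. The other 7 were Ccl12, Ccl27a, Ccl3, Ccl4, Ccl9, Cxcl10 and Cxcl9, with edgeR adjusted p = 0.0502 to 0.244 in the fits that lost them. Each library of WT day 0 and WT day 14 decided at least 1 of these calls.

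**Figure D3:**
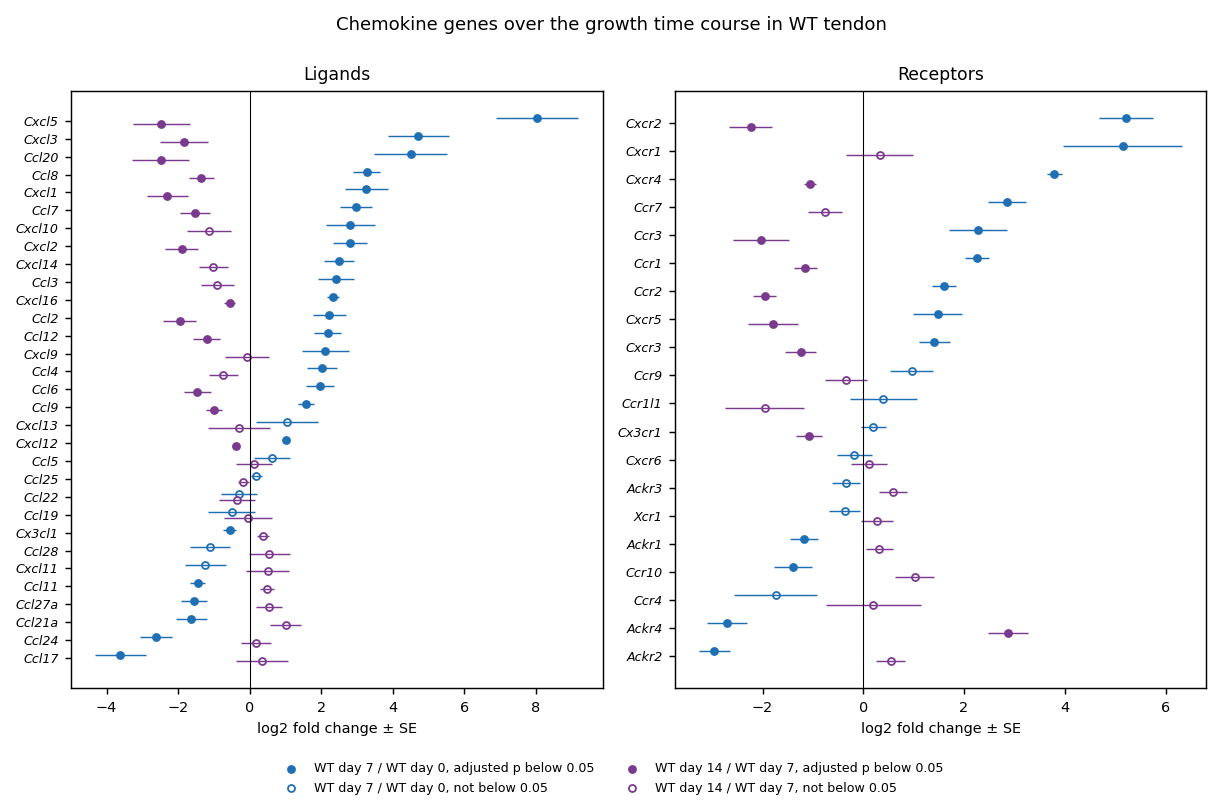
Log2 fold change ± SE of the 31 ligands (left) and 20 of the 21 receptors (right) tested, WT day 7 against WT day 0 in blue and WT day 14 against WT day 7 in purple, filled where the edgeR adjusted p is below 0.05. The comparisons share the WT day 7 libraries, so a gene high at day 7 moves both ways. Cxcl5 has the highest day 7 change, 8.04, and Ackr4 is the filled purple point above 0, at 2.87.

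KO tendon was set against WT tendon on each day. At day 7, 1 ligand (Ccl24) and 1 receptor (Ackr4) were higher in KO and 0 were lower, while 9.39% of all genes were higher and 5.42% lower, 14.8% in all. At an unadjusted p below 0.05 there were 9 ligands and 5 receptors, against 30.5% of all genes. DESeq2 called 7 ligands and 2 receptors, 9 of the 49 members to which it gave an adjusted p, against 20.3% of all such genes. Beside Ccl24 and Ackr4 these were Cxcl10, higher in KO, and Ccl8, Ccl9, Ccl27a, Cxcl2, Cxcl14 and Cxcr3, lower in KO. At day 14 Ccl24 was again higher, and 0 receptors passed with edgeR, against 1.06% of all genes higher and 0.719% lower, 1.78% in all. There the unadjusted p was below 0.05 for 5 ligands and 6 receptors, against 16.7% of all genes. DESeq2 called Ccl24, Ccl8 and Ackr4, against 4.02% of all genes. The median log2 fold change at day 7 was -0.21 over ligands, -0.08 over receptors and -0.01 over all genes.

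Ccl24, an eotaxin made by macrophages, had 9.69, 13.7, 26.9 and 7.13 CPM in KO day 7 libraries, against 1.62, 2.97, 3.43 and 3.33 CPM in WT day 7 libraries. The lowest KO library was above the highest WT one, and the KO libraries overlapped the WT day 0 range of 14.1 to 21.2 CPM. The log2 fold change was 2.34 ± 0.43 (SE, n = 4 per group; edgeR adjusted p = 0.00246), higher in 4 of 4 KO libraries, and the call stood without any single library and in all other settings. At day 14 the KO libraries had 12.1, 18.4, 7.82 and 5.10 CPM and the WT ones 5.14, 2.77, 2.55 and 2.29 CPM. The groups met at WT replicate 1 and KO replicate 4. The change was 1.77 ± 0.43 (edgeR adjusted p = 0.0467). That call was lost without WT day 14 replicate 2 or 3 or KO day 14 replicate 1, 2 or 3 (edgeR adjusted p = 0.0701 to 0.129). Other settings that lost it included no filter on low counts and the fit to the compared groups alone, and over all settings other than leaving out a library the adjusted p ranged from 0.000601 to 0.16. Its receptor Ccr3 stood at -0.56 ± 0.51 at day 7 (edgeR adjusted p = 0.501; called lower without KO day 7 replicate 1, at 0.0449), and its fellow eotaxin Ccl11 at -0.30 ± 0.20 (adjusted p = 0.346).

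Ackr4 had 8.69, 5.49, 8.45 and 13.6 CPM in KO day 7 libraries, against 5.08, 1.34, 1.04 and 2.57 CPM in WT day 7 libraries. Every KO library was above every WT one, narrowly so for KO replicate 2 and WT replicate 1. The log2 fold change was 1.85 ± 0.39 (edgeR adjusted p = 0.00601), and the call stood without any single library and in all other settings. At day 14 KO libraries had 44.7, 28.5, 56.5 and 28.4 CPM and WT libraries 17.01, 19.0, 20.4 and 17.5 CPM, again without overlap. The change there was 1.10 ± 0.37 and did not pass (edgeR adjusted p = 0.145, and 0.0419 to 0.191 over the other settings, DESeq2 the lowest). Ackr4 shares 479 of 5380 exon bases with Acad11 on the opposite strand, which stood at -0.07 ± 0.12 at day 7 and 0.11 ± 0.12 at day 14 (edgeR adjusted p = 0.74 and 0.686). Of the ligands that Ackr4 removes, Ccl19 at -1.21 ± 0.71 and Ccl21a at -0.60 ± 0.43 did not pass in KO at day 7 (edgeR adjusted p = 0.263 and 0.367).

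Other members stood apart from WT without passing in the edgeR fit. Cxcl2 had 3.40, 4.0, 3.38 and 2.46 CPM in KO day 7 libraries, against 4.24, 6.91, 12.1 and 7.34 CPM in WT day 7 libraries, and 0.237, 0.444, 0.891 and 1.45 CPM in KO day 14 libraries, against 2.37, 2.03, 1.85 and 1.91 CPM in WT day 14 libraries. The groups did not overlap on either day, and the log2 fold changes were -1.21 ± 0.44 and -1.41 ± 0.50 (edgeR adjusted p = 0.0719 and 0.157). The neighbours Cxcl1, Cxcl3 and Cxcl5 had changes of -1.08 ± 0.54, -0.97 ± 0.64 and -1.05 ± 0.77 at day 7, with overlap. Ccl8 had 88.7, 164, 252 and 122 CPM in KO at day 7, against 135, 267, 413 and 404 CPM in WT, and 45.3, 53.3, 76.0 and 41.2 CPM in KO at day 14, against 98.6, 120, 93.1 and 164 CPM in WT. The day 7 groups overlapped and the day 14 groups did not. Its changes were -0.96 ± 0.34 and -1.14 ± 0.35 (edgeR adjusted p = 0.0697 and 0.11). DESeq2 called Cxcl2 at day 7 (adjusted p = 0.0328; 0.0218 with edgeR in the compared groups alone) and Ccl8 on both days (adjusted p = 0.0167 and 0.0147).

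Cxcl10 had 2.62, 18.4, 18.0 and 27.0 CPM in KO at day 7, against 5.80, 4.44, 2.67 and 7.93 CPM in WT. KO replicate 1 lay within the WT range and the other 3 above it. The log2 fold change was 1.66 ± 0.61 (edgeR adjusted p = 0.0746; DESeq2 adjusted p = 0.0426) and Cxcl9 had 1.14 ± 0.61 (adjusted p = 0.221). The summed interferon response genes ran from 339 to 1084 CPM in KO at day 7 and from 312 to 574 CPM in WT. Within KO the sum was lowest in replicate 1 and highest in replicate 4. Of these 17 genes 1, Irf1, was called higher in KO, against 9.39% of all genes tested. Cxcr4 had 53.0, 45.1, 35.1 and 39.6 CPM in KO at day 7, against 60.4, 55.3, 43.3 and 59.3 CPM in WT, and 21.7, 22.2, 18.0 and 20.9 CPM in KO at day 14, against 28.1, 23.9, 25.7 and 27.1 CPM in WT. Its changes of -0.34 ± 0.13 and -0.34 ± 0.13 did not pass (edgeR adjusted p = 0.0783 and 0.184), and the groups overlapped at day 7 only. Ccr2 was the receptor higher in KO without overlap at day 14 beside Ackr4, with 69.2, 82.6, 61.1 and 57.7 CPM against 30.6, 56.4, 46.0 and 44.2 CPM in WT, a change of 0.61 ± 0.23 that did not pass (edgeR adjusted p = 0.183).

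Several members passed at day 7 when a single library was left out (edgeR adjusted p = 0.0111 to 0.0488). WT day 7 replicate 1 had the lowest leukocyte and macrophage sums of its group (659 and 2567 CPM). Without it Ccl8, Ccl9, Cxcl12 and Cxcl14 were called lower in KO and the ligands called numbered 5 rather than 1, and with Ccr1 and Cxcr3 also lower the receptors called were 3 rather than 1. Without KO day 7 replicate 3, Ccl6, Ccl8 and Ccl9 were called, 4 ligands in all, and with Cxcr3 2 receptors. Without KO day 7 replicate 1, Ccl3 and Cxcl10 were called, 3 ligands in all, and with Ccr3 and Cxcr4 3 receptors. Ccl27a was called without KO day 7 replicate 2 and Cxcr4 without WT day 7 replicate 3, which makes 2 ligands and 2 receptors.

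Marker levels of other cells also differed between KO and WT at day 7, where 9.39% of all genes tested were higher in KO and 5.42% lower. The muscle fibre markers had a summed level of 3931 to 9566 CPM in KO and 155 to 1227 CPM in WT, with 7 of 8 higher in KO. Of 11 tendon genes 6 were higher in KO and 0 lower, with a sum of 92170 to 112200 CPM in KO and 50880 to 62770 CPM in WT. Most of that sum was Col1a1 (means of 39900 CPM in KO and 19520 CPM in WT) and Col1a2 (39700 and 22350 CPM). Scx, also among the 11, carries CreERT2 in KO mice and averaged 736 CPM in KO and 50.5 CPM in WT. General leukocyte markers were lower in KO in 4 of 7 cases, with a sum of 633 to 808 CPM in KO and 659 to 1008 CPM in WT, and mast cell markers in 4 of 6. The summed macrophage markers were 2571 to 4208 CPM in KO and 2567 to 4929 CPM in WT, and the neutrophil markers 42.8 to 109 CPM in KO and 73.7 to 145 CPM in WT. Of 7 dendritic cell markers 3 of antigen presentation were higher (Cd74, H2-Ab1 and Ciita) and Flt3 was lower. The part of these cells in the values of Ccl24, Ackr4 and the others was not tested.

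**Figure D4:**
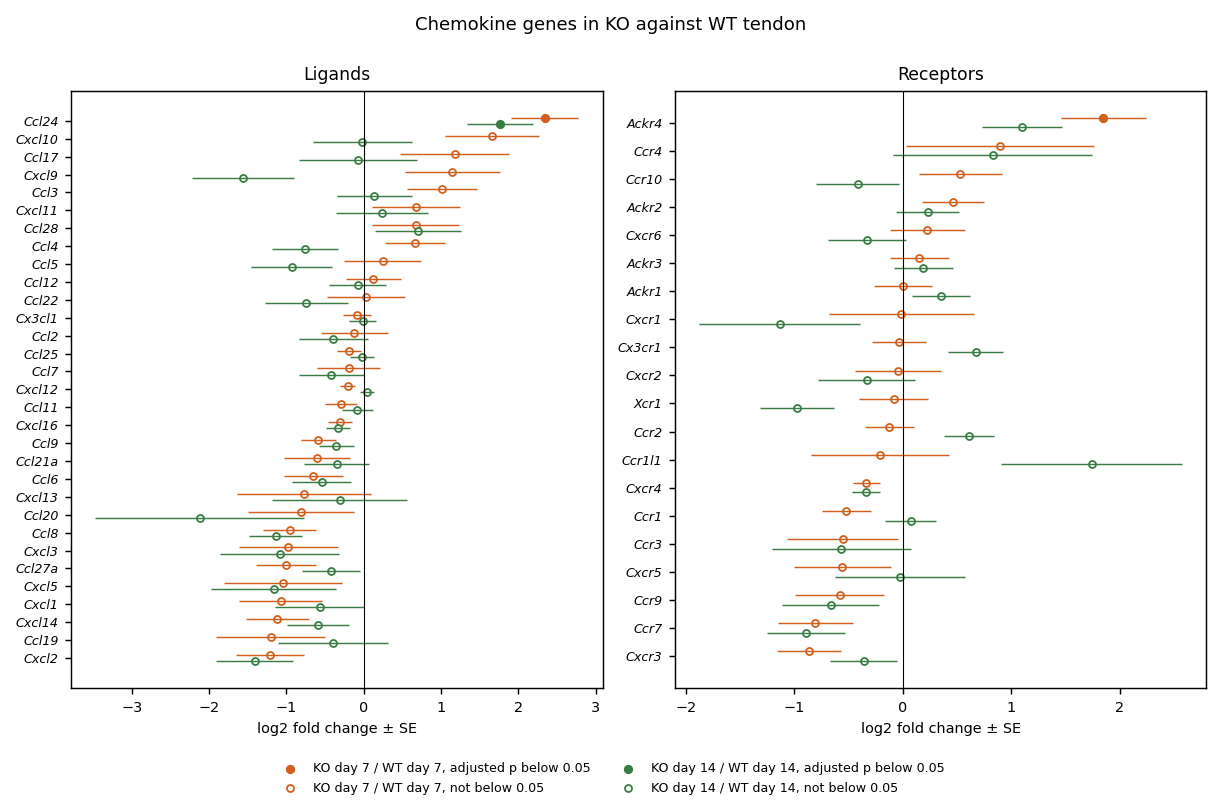
Log2 fold change ± SE of the 31 ligands (left) and 20 of the 21 receptors (right) tested, KO day 7 against WT day 7 in orange and KO day 14 against WT day 14 in green, filled where the edgeR adjusted p is below 0.05. The filled points are Ccl24 on both days, at 2.34 and 1.77, and Ackr4 at day 7, at 1.85.

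The genotype difference at day 14 was also set against that at day 7. The interaction of genotype and day was called for 0 ligands and 0 receptors, and for 0% of all genes, with edgeR. Its unadjusted p was below 0.05 for 2 ligands, Cxcl9 at -2.70 ± 0.90 and Ccl4 at -1.42 ± 0.57, and for 1 receptor, Ccr2 at 0.74 ± 0.32, against 10.8% of all genes. DESeq2 called 0 of the 40 members to which it gave an adjusted p, against 1.28% of all such genes. Cxcl9 had 3.21, 20.9, 4.62 and 8.98 CPM in KO and 2.93, 4.12, 1.68 and 8.29 CPM in WT at day 7, and 1.63, 0.652, 1.58 and 1.61 CPM in KO and 1.52, 2.21, 3.46 and 9.01 CPM in WT at day 14. The groups overlapped on both days.

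At KO day 14 against KO day 7, 15 ligands and 5 receptors fell and Ccl11 and Ackr4 rose. Of all genes 8.57% fell and 7.09% rose, 15.7% in all. Among the falls were Ccl2 by 2.24 ± 0.46, Cxcl2 by 2.11 ± 0.49, Ccl8 by 1.54 ± 0.35, Cxcl10 by 2.82 ± 0.65, Cxcr2 by 2.53 ± 0.44 and Cxcr4 by 1.06 ± 0.13 (edgeR adjusted p = 0.00432, 0.00788, 0.00767, 0.00805, 0.0012 and 6.92e-05). Ackr4 rose by 2.12 ± 0.38 (edgeR adjusted p = 0.00179), and all 7 leukocyte markers fell. Of the 22 calls 12 stood without any single library, and that of Ccl11 was lost without KO day 7 replicate 1 or KO day 14 replicate 3 or 4 (adjusted p = 0.0559 to 0.116). The count of 16 ligands was 9 without KO day 14 replicate 1 and 10 without KO day 14 replicate 3. Cxcl17, which was not tested, had 0 counts at KO day 14 and 17 at WT day 14. With a floor of 3 counts over the group in place of 0, it was 4.49-fold lower, which leaves out the counting error of the 17.

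Lists of genes around the chemokines were read against the shares of all genes, 32.3% higher and 31.8% lower at WT day 7 against day 0 and 16% higher and 14.3% lower at WT day 14 against day 7. Of 27 genes of intracellular chemokine receptor signalling, 19 rose and 2 fell at WT day 7 against day 0, with Dock2, which drives leukocyte migration, at 1.73 and Pik3r5 at 1.78. At day 14 against day 7, 16 fell and 1 rose. Of 14 genes of NF-kappa B and its feedback, 8 rose and 1 fell at day 7, Rel at 1.23, Nfkb2 at 1.40 and the inhibitor Nfkbie at 1.51, and 7 fell at day 14 against day 7. Of 11 tested inducers of chemokine genes 5 rose and 2 fell at day 7, Il1b at 4.67, Il6 at 6.01 and Osm at 2.94, and 4 fell at day 14 against day 7. Of 11 tested genes of leukocyte adhesion at vessels 9 rose at day 7, with Vcam1 at 2.55 and Itgb2 at 1.74. Of 12 tested proteases that cut chemokines 10 rose, with Ctss at 2.75 and Mmp14 at 2.06, and the gene that fell was Dpp4, at -1.98. Of 7 relatives without a matching symbol 3 rose and 2 fell, with the cytokine Mif at 1.80 and the chemerin gene Rarres2 at -2.94.

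In KO against WT at day 7 the same lists gave 6 lower of 27 signalling genes, with Pik3cg at -0.70 and Lyn at -0.42. Of the 14 NF-kappa B genes 4 were lower and 1 higher, Rel at -0.55 and Rela at 0.34; Rela and Dpp4 are named here after their values were seen. Of the inducers Il33 alone was lower, at -1.11, of the adhesion genes Itga4 alone, at -0.51, and 3 proteases were higher, Mmp14 and Mmp2 at 0.59 each and Dpp4 at 0.78. At day 14 Elmo1, higher by 0.50, was the sole gene of these lists called. The share of all genes called, 14.8% at day 7 and 1.78% at day 14, is the background for these counts.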

How the data were processed

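RNA sequencing of 20 plantaris tendon libraries was analysed from the raw counts per gene that the authors deposited, whole numbers for 24885 genes. The submitters' processing notes name FastQC, STAR, the mm10 build and edgeR. Versions, the counting tool and the strand setting are not stated in the sources at hand. A deposited table of the authors' own comparisons was not used here. Sample titles gave each library its group and replicate number.

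The tests ran in R 4.3.3 with edgeR 4.0.16. filterByExpr with default settings kept 18918 genes, and TMM factors scaled the libraries. All 20 libraries entered a single robust quasi-likelihood fit (a mean for each group), from which 7 comparisons were drawn. Adjusted p-values are Benjamini-Hochberg over all genes tested, with a call below 0.05. The code was tested on simulated data. The alternatives were RLE scaling, no filter, a stricter filter (1 CPM or more in 4 or more libraries), DESeq2 1.42.0, a fit without the other groups, a block for the replicate number, and leaving out each library. No alternative was added later.

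The members and lists were chosen with earlier results of these data known. Values per library are given for members called between KO and WT, and, among ligands and receptors apart, for the 5 with the smallest p at WT day 7 against day 0 and the 3 at WT day 14 against day 7. A receptor among them and a few listed genes are not reported here by name, though they count in every total. The other members with values per library (Cxcl5, Cxcl1, Cxcl2, Cxcl3, Ccl7, Cxcl10, Cxcl9, Ccl17, Ccl21a, Ackr1, Cxcl14 and Cx3cr1) were chosen after their values were seen.

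Exon lengths, overlaps and coordinates are from GENCODE vM21 (GRCm38). Promoters are from RefSeq (GRCm38.p6), which gave a sequence for 43 of 58 members. No 2 libraries of a group looked like repeats of each other: the smallest chi-square per degree of freedom was 15.4 over 30 pairs.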

Additional observations from a re-analysis of the deposited data

Results flagged for a closer look

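In 130 groups of 4 libraries (26 members examined per library, 5 groups each), 10 groups had a library whose gap to its nearest neighbour took up more of the group's range than Dixon's 95% critical value allows. Chance flags about 1 in 20 groups, so 6.5 would be flagged by chance. Ccl9 at 103 CPM and Ccr1 at 38.8 CPM were low in WT day 7 replicate 1, where the other 3 libraries had 194 to 205 and 72.5 to 78.9 CPM. Ccl2 at 45.7 CPM was low in KO day 7 replicate 1, against 72.4 to 74.3 CPM in the rest. Ccl17 at 1.59 CPM was high in KO day 7 replicate 2, the library with keratinocyte RNA, and at 0.102 CPM low in KO day 14 replicate 4. Cxcl9 at 0.652 CPM was low in KO day 14 replicate 2. Ccl24 at 5.14 CPM was high in WT day 14 replicate 1, against 2.29 to 2.77 CPM in the others. In WT day 0, Ccl8 was high in replicate 4 at 40.8 CPM, Cxcr2 low in replicate 3 at 0.104 CPM and Cxcl3 high in replicate 2 at 0.228 CPM.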

How the results depend on the processing

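Of 81 single-member results under 14 alternatives each, 1134 in all, 1067 kept their direction and their side of the threshold, 67 kept the direction but no longer passed and 0 reversed. The counts of members called moved by over 1.5 times as follows. For KO against WT at day 7, 1 ligand became 2 in the compared groups alone, 7 with DESeq2 and 1 to 5 when a library was left out. The 1 receptor became 2 with the stricter filter, 2 in the compared groups alone, 2 with DESeq2 and 1 to 3 when a library was left out. For KO against WT at day 14, 1 ligand became 0 without the filter, 0 in the compared groups alone, 2 with DESeq2 and 0 to 1 when a library was left out, and 0 receptors became 1 with DESeq2. For KO day 14 against KO day 7, 16 ligands became 9 to 15 when a library was left out. The cause was not tested. With the replicate number as a block, the counts were 2 ligands and 3 receptors for KO against WT at day 7, with Ccl8, Cxcr3 and Cxcr4 gained, and 0 ligands at day 14, where Ccl24 was lost. The numbers were not taken to pair the libraries, since that asked for a correlation above 0.1 in every same-numbered pair and 14 of 40 had one (range -0.165 to 0.272). A library was closest to its own number in 33 of 80 checks, where 20 would come from the number of libraries alone, a hint from the data and not the design. Members with a few counts per library, such as Ccl20, Cxcr1, Ccr4 and Ccl28, were measured with large errors, and changes in them may not be detectable at this depth.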
